A study of Mus musculus with 6 samples.

Results

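The genes for making and packing GABA, and the genes that mark the main classes of cortical interneuron, were examined in the prefrontal cortex of *Pla2g4e* knockout mice. The group holds 9 genes of the 56923 listed in the count tables, named by function and matched by gene identifier. They are *Gad1*, *Gad2* and *Slc32a1* for GABA itself, *Pvalb* and *Lhx6* for interneurons born in the medial ganglionic eminence, *Adarb2*, *Reln* and *Ndnf* for interneurons of the caudal eminence and of layer 1, and the receptor gene *Erbb4*. All 9 were measured well above the filter on low values, with 185 to 8594 fragments per library, and all 9 were among the 19084 genes tested.

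RNA sequencing of 3 knockout (KO) and 3 wild-type (WT) prefrontal cortex samples was carried out to compare gene expression between mice with and without the knockout allele of *Pla2g4e*, a phospholipase gene whose product makes N-acylphosphatidylethanolamines. The KO mice were of the C57BL/6N-*A* tm1Brd *Pla2g4e* tm2a strain, whose constitutive tm2a allele is a gene trap that is predicted to end the transcript by splicing into a LacZ element in every cell type. The labels give neither sex nor age for these samples, and do not state whether each sample came from 1 mouse, so p-values measure the spread between these samples. Library totals ranged from 11792463 to 14594230 fragments. Levels are CPM (counts scaled to a library of 1000000 fragments) after TMM scaling, which corrects for RNA composition. Fold changes are log2(KO/WT), and the threshold was a limma-voom p-value of 0.05 after Benjamini-Hochberg adjustment over all genes tested.

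GABA is the main inhibitory transmitter of the cortex. It is made from glutamate by the glutamate decarboxylases GAD67 (*Gad1*) and GAD65 (*Gad2*) and loaded into synaptic vesicles by the transporter VGAT (*Slc32a1*), and nearly every inhibitory neuron expresses all of these. Cortical interneurons come from the medial ganglionic eminence, which gives the parvalbumin and somatostatin classes under the control of the transcription factor LHX6, and from the caudal eminence, which gives the VIP, SNCG and most LAMP5 cells marked by *Adarb2*. GABA neurons also fill the striatum and the olfactory bulb, which border the prefrontal cortex, so bulk RNA reports all of them together. In such RNA, fewer cells of a type and less RNA per cell cannot be told apart.

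Some facts of the libraries bear on every result below. *Pla2g4e* itself was at 5.95, 8.12 and 7.97 CPM in the KO libraries and at 7.84, 11.3 and 13.2 CPM in the libraries labelled WT, so 1 library with a WT label, replicate 1, was inside the range of KO, and directions follow the labels. The KO to WT ratio of the targeted gene was 0.685 (log2 fold change -0.55, limma-voom unadjusted p = 0.0205 and adjusted p = 0.635), so it did not pass the threshold, and the counts do not show from which part of the transcript the fragments came. The log2 fold change was -0.76 without WT replicate 1, -0.39 without KO replicate 1 or WT replicate 3, and -0.32 with an olfactory bulb marker covariate. In the study's Western blots, the protein was not seen in hippocampus of knockout mice. The replicates numbered 1 expressed *Xist* (1390 CPM for KO and 969 CPM for WT), which did not exceed 0.246 CPM elsewhere. The 4 Y-linked genes examined summed to 0, 190 and 186 CPM in KO and to 0.157, 182 and 185 CPM in WT. By these genes the replicates numbered 1 were female and the others male. The Y-linked covariate used below therefore mainly sets the replicates numbered 1 apart from the others. KO replicate 1 also had the highest level of olfactory bulb markers. The 6 olfactory bulb neuron markers examined (*Eomes*, *Tbx21*, *Cdhr1*, *Doc2g*, *Th* and *Pbx3*) summed to 250, 71.4 and 42.6 CPM in KO and to 68.6, 15.6 and 44.4 CPM in the libraries labelled WT. On the log2 scale, the mean of the 6 markers stood 2.33 above its average over the libraries in KO replicate 1, the largest positive deviation. The largest negative deviation, -2.12, was that of WT replicate 2. The 10 striatal markers summed to 500, 659 and 513 CPM in KO and to 420, 412 and 619 CPM in WT, a different order of libraries. Of the 8 excitatory neuron markers, *Slc17a7* was at 1160 to 1630 CPM over the 6 libraries and *Emx1* at 9.87 to 13.4 CPM. The mean log2 deviation of these markers was lowest in KO replicate 1, at -0.28. No tested gene of a marker list was under 1 CPM in every library.

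None of the 9 genes differed between KO and WT at the adjusted threshold, where 0% of all genes were called (0 of 19084) and 1492 genes had an unadjusted limma-voom p-value under 0.05. edgeR's quasi-likelihood test also called 0 genes (1507 unadjusted) and DESeq2 called 1 (902 unadjusted), which was *Sst* and not 1 of the 9. At that unadjusted level 3 of the 9 genes differed, against 7.82% of all genes. *Lhx6* and *Pvalb* were lower in KO and *Adarb2* was higher. The log2 fold change was above 0 for 7 of the 9 genes, against 51.9% of all genes, and the median over the 9 was 0.10, against 0.01 over all genes tested. The KO values lay entirely below the WT values for 2 of the 9 genes (6.29% of all genes), again *Lhx6* and *Pvalb*, and lay entirely above them for 0 of the 9 (6.72% of all genes).

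**Figure D1:**
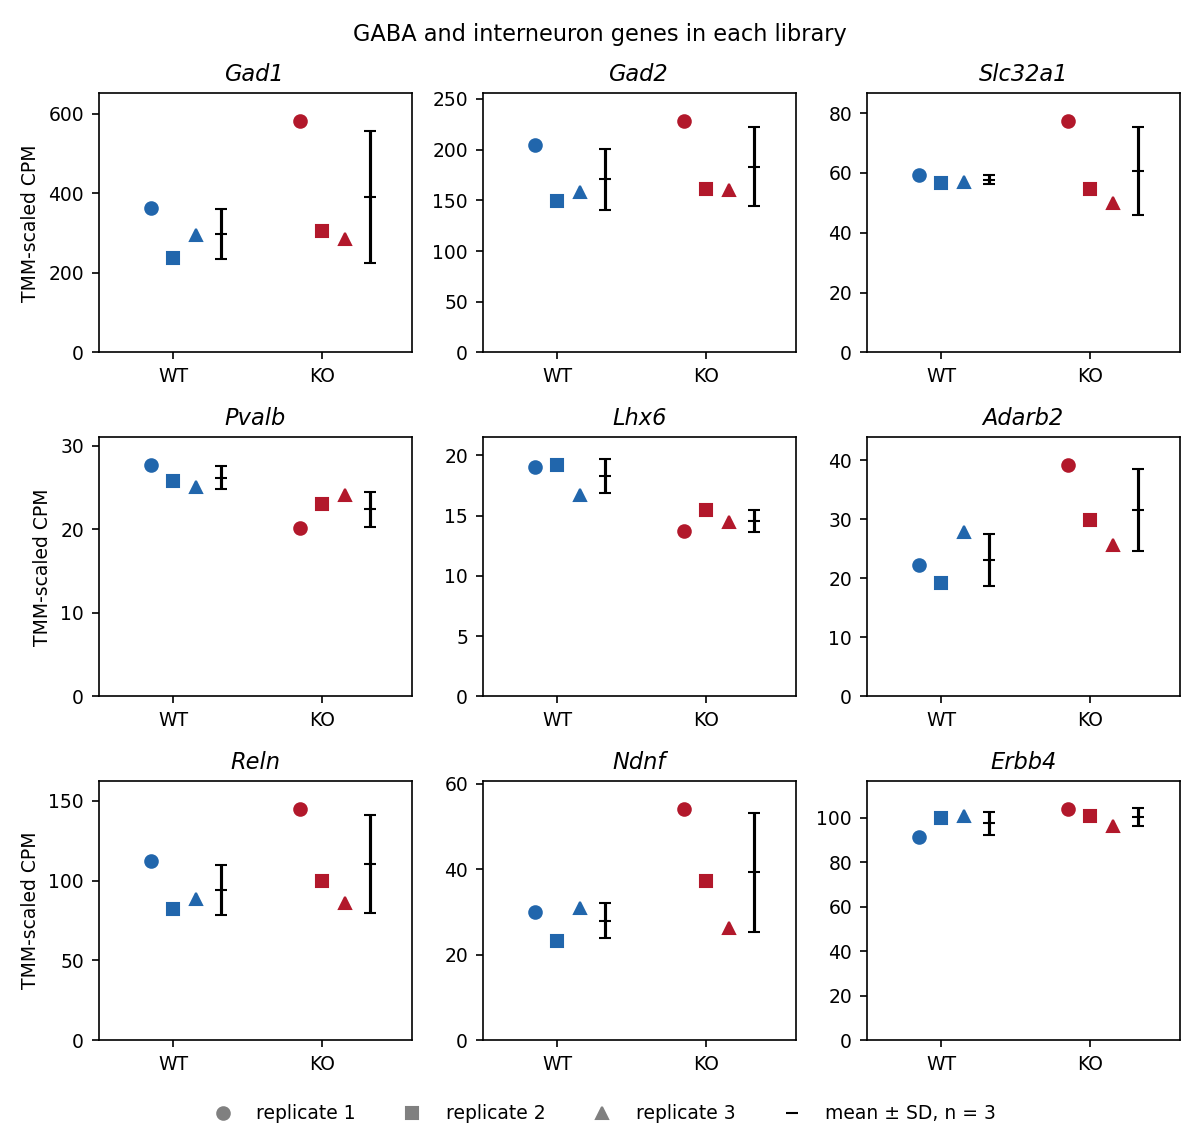
Expression of the 9 genes in each library (vertical axes, TMM-scaled CPM starting at 0), with WT in blue and KO in red, a symbol for each replicate and the mean ± SD (n = 3) beside the points. KO replicate 1 (red circle) is the highest point for 7 genes and the lowest for *Pvalb* and *Lhx6*.

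The genes that make and pack GABA are described next. *Gad1* (ENSMUSG00000070880.11) lies on the plus strand of chromosome 2, from 70383416 to 70432358 in GRCm39. It was at 581, 304 and 285 CPM in KO and at 363, 238 and 295 CPM in WT. KO replicate 1 stood far above every other library, and the other KO libraries lay within the WT range. The means were 390 ± 165 CPM in KO and 299 ± 63.0 CPM in WT (SD, n = 3), with a log2 fold change of 0.33 (SE 0.22, 95% interval -0.15 to 0.81, limma-voom adjusted p = 0.693). The interval includes 0. Without KO replicate 1 the log2 fold change was 0.00, with an interval of -0.27 to 0.27. It was 0.18 without WT replicate 2, and 0.33 to 0.52 with any other single library left out.

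*Gad2* (ENSMUSG00000026787.4, chromosome 2, plus strand, 22512217 to 22583886) supplies the decarboxylase held at synaptic terminals. It was at 228, 161 and 160 CPM in KO and at 205, 149 and 158 CPM in WT. The groups overlapped, and replicate 1 of each group was its highest, as for *Gad1*. The log2 fold change was 0.10 (SE 0.14, 95% interval -0.21 to 0.40, limma-voom adjusted p = 0.860). That of *Gad2* was -0.07 without KO replicate 1, 0.00 without WT replicate 2 and 0.23 without WT replicate 1. *Slc32a1* (ENSMUSG00000037771.12, chromosome 2, plus strand, 158452687 to 158457668) was at 77.3, 54.8 and 49.9 CPM in KO and at 59.4, 56.7 and 57.0 CPM in WT. The WT libraries were close to each other (57.7 ± 1.49 CPM), whereas KO replicate 1 was above all of them and the other KO libraries were below all of them. The log2 fold change was 0.05 (95% interval -0.23 to 0.34, limma-voom adjusted p = 0.925), and it was -0.14 without KO replicate 1 (unadjusted p = 0.115 and adjusted p = 0.925 in limma-voom).

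The 2 members from the medial eminence had lower values in every KO library than in any WT library, without passing the adjusted threshold. The 8 excitatory neuron markers also had log2 fold changes at or below 0 (median -0.19), from -0.42 for *Neurod6* to 0.00 for *Camk2a*. The part of these markers in the values of the 2 members was not tested. *Lhx6* (ENSMUSG00000026890.20, chromosome 2, minus strand, 35971965 to 35995420) encodes the LIM homeodomain factor that parvalbumin and somatostatin interneurons keep into adulthood. It was at 13.7, 15.5 and 14.5 CPM in KO and at 19.0, 19.2 and 16.7 CPM in WT. Every KO library was below every WT library. The means were 14.6 ± 0.921 and 18.3 ± 1.38 CPM (SD, n = 3), a KO to WT ratio of 0.794 with a log2 fold change of -0.33 (SE 0.11, 95% interval -0.57 to -0.09, limma-voom unadjusted p = 0.0104 and adjusted p = 0.635). The counts behind these values were 185 to 243 fragments, which gives a counting error of 7.35% at the lowest. The gap between the highest KO library (15.5 CPM) and the lowest WT library (16.7 CPM) was close to that error. *Lhx6* lies 84.0 Mb from *Pla2g4e* on the same chromosome, as *Gad1*, *Gad2* and *Slc32a1* do at 49.6, 97.4 and 38.4 Mb.

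*Pvalb* (ENSMUSG00000005716.17, chromosome 15, minus strand, 78075314 to 78090600) encodes parvalbumin, the calcium buffer of fast-spiking basket and chandelier cells. It was at 20.1, 23.0 and 24.1 CPM in KO and at 27.7, 25.8 and 25.1 CPM in WT. The groups did not overlap, but the gap between the highest KO and the lowest WT library was under the counting error of 6.03% at the lowest count. The means were 22.4 ± 2.03 and 26.2 ± 1.32 CPM (SD, n = 3) and the log2 fold change was -0.23 (SE 0.10, 95% interval -0.45 to -0.02, limma-voom unadjusted p = 0.0357 and adjusted p = 0.635). Without KO replicate 1 it was -0.15 (95% interval -0.38 to 0.08). *Sst*, the somatostatin gene of the sister class, was at 80.4, 95.3 and 93.1 CPM in KO and at 142, 117 and 121 CPM in WT, with a log2 fold change of -0.50 (adjusted p = 0.635 in limma-voom and 0.0122 in DESeq2). With summed Y-linked expression as a covariate, its adjusted limma-voom p was 0.0341, and none of the 9 members passed.

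*Adarb2* (ENSMUSG00000052551.17, chromosome 13, plus strand, 8252902 to 8818783) encodes a member of the RNA-editing deaminase family that has no known editing activity, and its RNA marks interneurons of the caudal eminence. It was at 39.2, 29.9 and 25.7 CPM in KO and at 22.3, 19.2 and 27.8 CPM in WT. The groups overlapped through KO replicate 3 and WT replicate 3. The means were 31.6 ± 6.91 and 23.1 ± 4.37 CPM (SD, n = 3), with a log2 fold change of 0.46 (SE 0.16, 95% interval 0.10 to 0.81, limma-voom unadjusted p = 0.0152 and adjusted p = 0.635). Without KO replicate 1 it was 0.28 (95% interval -0.03 to 0.58). It was 0.33 without WT replicate 2, and 0.44 to 0.60 with any other single library left out.

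*Reln* (ENSMUSG00000042453.15, chromosome 5, minus strand, 22089452 to 22549700) encodes the secreted glycoprotein reelin, which adult cortex makes in layer 1 and other interneurons. It was at 145, 99.8 and 86.2 CPM in KO and at 112, 82.3 and 88.6 CPM in WT. From high to low, the libraries came in the same order as for *Gad1*, and the log2 fold change was 0.21 (SE 0.16, 95% interval -0.15 to 0.56, limma-voom adjusted p = 0.734). That of *Reln* was -0.01 without KO replicate 1, 0.12 without WT replicate 2 and 0.37 without KO replicate 3. *Ndnf* (ENSMUSG00000049001.6, chromosome 6, plus strand, 65648574 to 65689310) marks the neurogliaform cells of layer 1. It was at 54.1, 37.3 and 26.3 CPM in KO and at 29.9, 23.2 and 30.8 CPM in WT. KO replicates 1 and 2 were above all WT libraries, and KO replicate 3 lay within the WT range. The log2 fold change of *Ndnf* was 0.45 (SE 0.21, 95% interval -0.01 to 0.91, limma-voom unadjusted p = 0.0546 and adjusted p = 0.637), and 0.17 without KO replicate 1. That of *Ndnf* was 0.32 without WT replicate 2, and 0.46 to 0.71 with any other single library left out.

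*Erbb4* (ENSMUSG00000062209.16, chromosome 1, minus strand, 68071345 to 69147218) encodes the neuregulin receptor of interneurons and was the steadiest of the group. It was at 104, 101 and 96.1 CPM in KO and at 91.4, 100 and 101 CPM in WT, and its highest library was 1.14 times its lowest. The log2 fold change was 0.04 (SE 0.07) with a 95% interval of -0.11 to 0.19 (limma-voom adjusted p = 0.894).

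**Figure D2:**
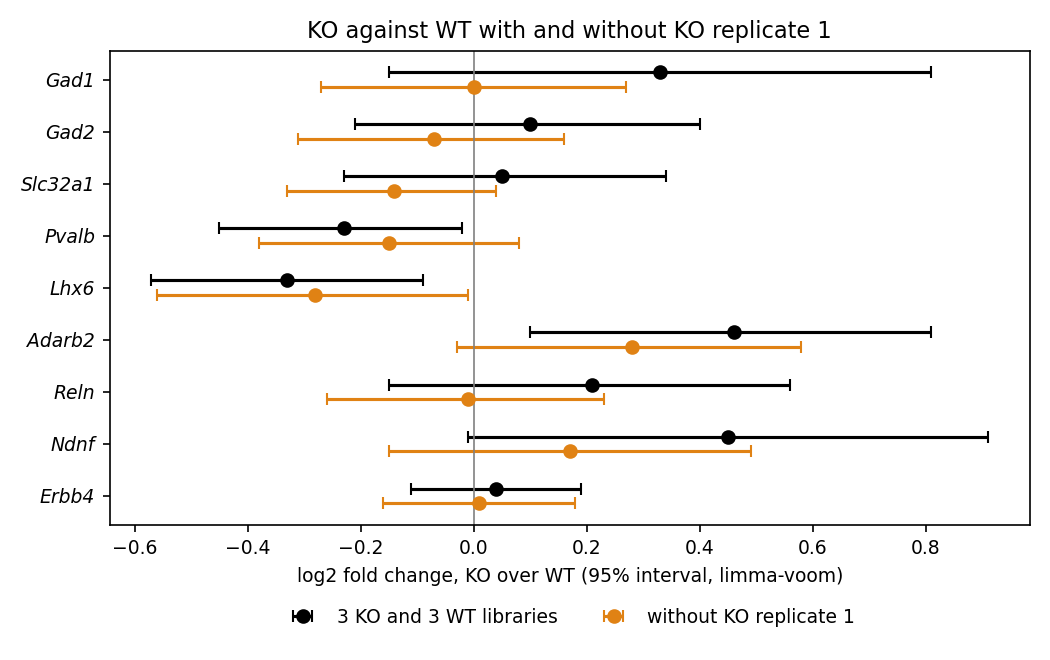
Log2 fold change of KO over WT for the 9 genes with 95% intervals from limma-voom, for all 6 libraries (black) and without KO replicate 1 (orange). *Gad1* moves from 0.33 to 0.00, whereas *Lhx6* stays at -0.33 and -0.28.

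The spread among the KO libraries was shared by most of the genes. KO replicate 1 was the highest of the 6 libraries for 7 of the 9 genes, against 22.1% of all genes, and the lowest for the other 2 (19.8% of all genes). Its excess over the mean of the other 5 libraries was 1.96-fold for *Gad1*, 1.84-fold for *Ndnf*, 1.57-fold for *Adarb2*, 1.55-fold for *Reln*, 1.39-fold for *Slc32a1*, 1.37-fold for *Gad2* and 1.06-fold for *Erbb4*. It was below that mean for *Pvalb* (0.801) and *Lhx6* (0.804). Without KO replicate 1, 5 of the 9 genes were lower in KO, the median log2 fold change over the 9 was -0.01 (0.01 over all genes), and 51.3% of all genes were higher. *Lhx6*, 1 of the 9, then had an unadjusted limma-voom p-value under 0.05, against 4.44% of all genes. Its log2 fold change was -0.28 (limma-voom unadjusted p = 0.0453 and adjusted p = 0.925). At the adjusted threshold 0 of the 9 and 0 of 18701 genes were called. *Lhx6*, *Pvalb* and *Slc32a1* lay entirely below the WT values in that comparison (10.1% of all genes).

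The same libraries ranked high for the genes of the olfactory bulb. From high to low, *Gad1* ordered the libraries as KO replicate 1, the WT-labelled replicate 1, KO replicate 2, WT replicate 3, KO replicate 3 and WT replicate 2. The summed olfactory bulb markers put KO replicate 1 at the top and WT replicate 2 at the bottom as well. With the mean log2 level of these markers as a covariate, a fit chosen after the values were seen, the log2 fold changes were -0.11 for *Gad1*, -0.16 for *Gad2*, -0.14 for *Slc32a1* and -0.10 for *Reln*. They were 0.22 for *Adarb2*, 0.09 for *Ndnf*, 0.04 for *Erbb4*, -0.18 for *Pvalb* and -0.28 for *Lhx6* (unadjusted p = 0.0488 and adjusted p = 0.808 in limma-voom). With the striatal markers as covariate they were 0.43 for *Gad1*, 0.37 for *Adarb2*, -0.22 for *Pvalb* and -0.30 for *Lhx6* (limma-voom unadjusted p = 0.0281 and adjusted p = 0.833). Within the 4 libraries without *Xist*, 0 of the 9 genes had an unadjusted limma-voom p-value under 0.05, against 3.77% of all genes. The log2 fold changes there were 0.15 for *Gad1*, 0.26 for *Adarb2*, -0.11 for *Pvalb* and -0.25 for *Lhx6*.

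**Figure D3:**
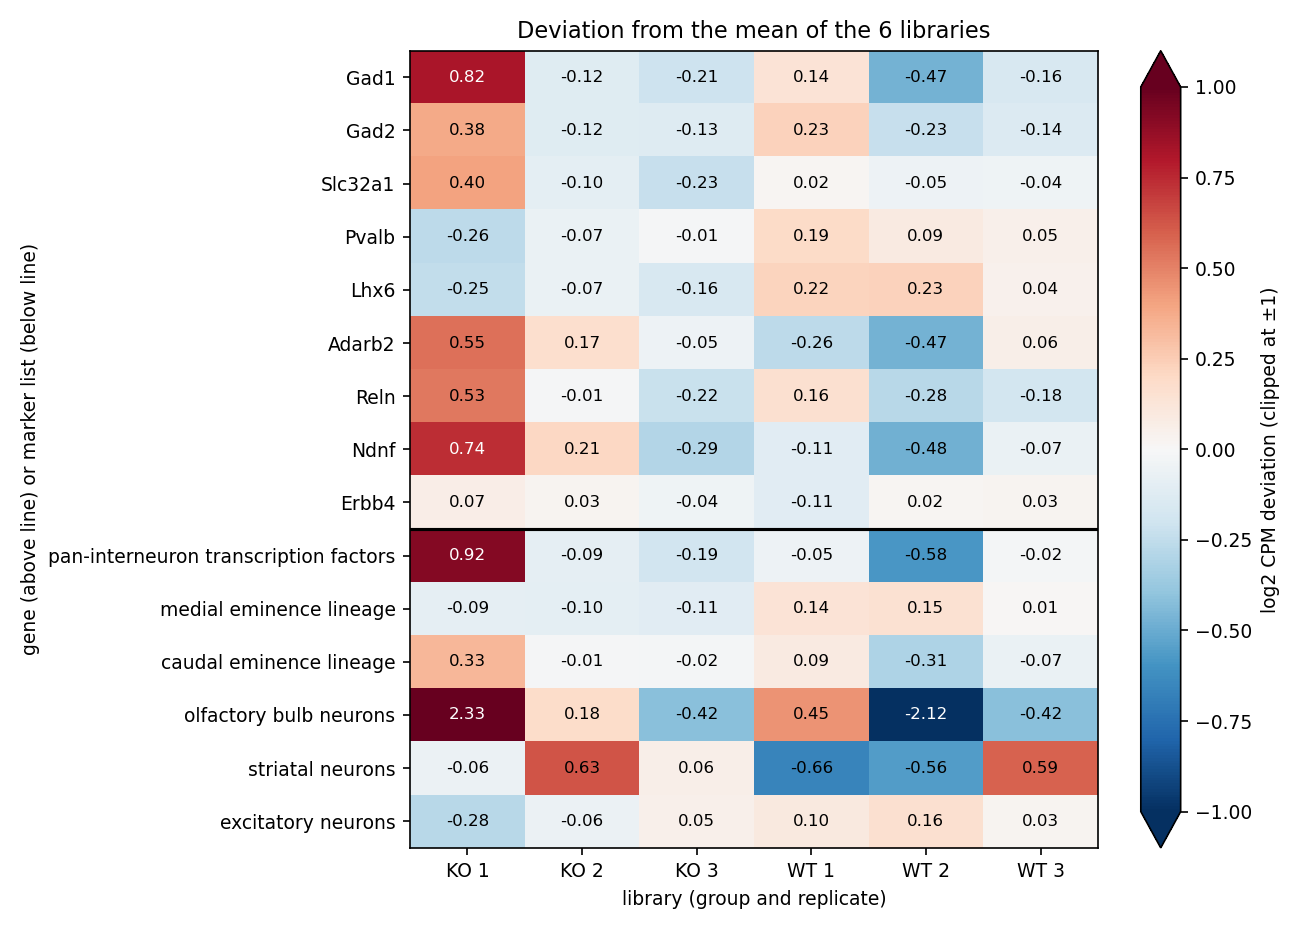
Deviation of log2 CPM in each library from the mean of the 6 libraries, for the 9 genes (above the line) and as the mean over marker lists (below it). The column of KO replicate 1 holds the highest value of the olfactory bulb list (2.33) and of *Gad1* (0.82), and *Lhx6* and the medial eminence list are negative in all 3 KO libraries.

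**Figure D4:**
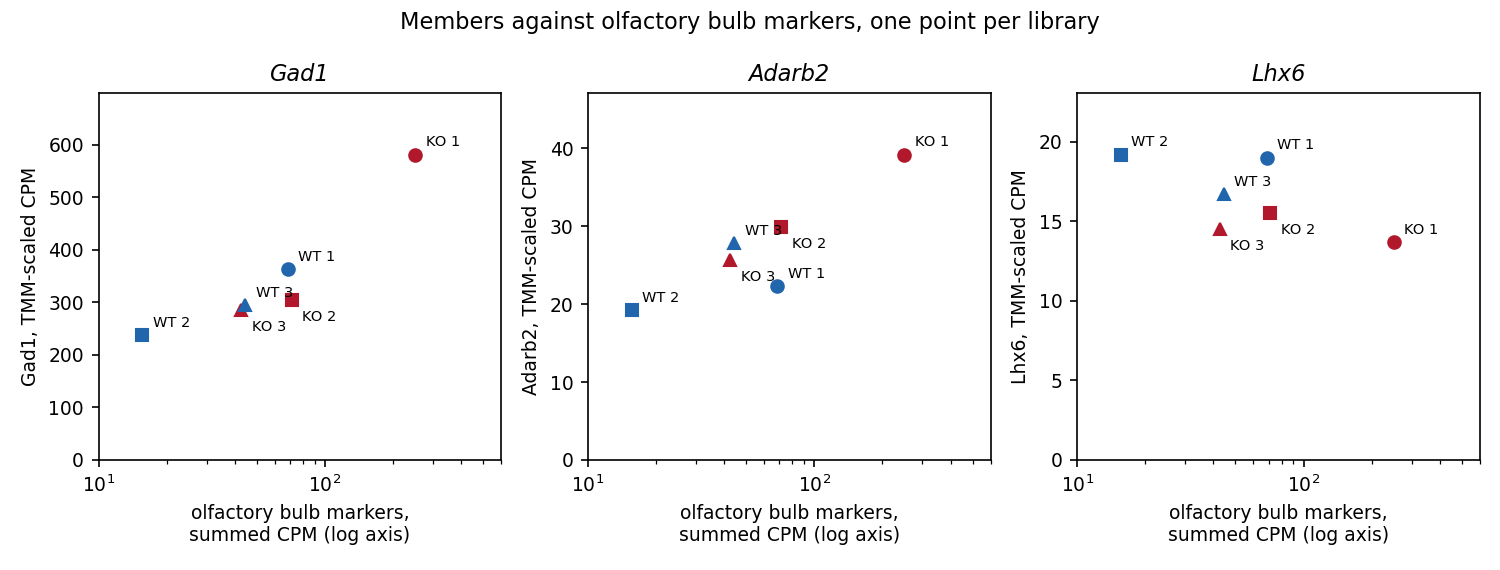
*Gad1*, *Adarb2* and *Lhx6* (vertical axes, TMM-scaled CPM) against the summed CPM of the olfactory bulb markers (horizontal log axis), with 1 point for each library, KO in red and WT in blue. *Gad1* is highest in KO replicate 1 and lowest in WT replicate 2, at the ends of the horizontal axis, while the 3 KO libraries lie below the 3 WT libraries for *Lhx6*.

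Levels were also compared between genes, as FPKM (the CPM divided by the exon length in kilobases), over all 6 libraries. *Gad1* was highest at 45.1 ± 16.1 FPKM (SD, n = 6), followed by *Gad2* at 30.1 ± 5.40, *Pvalb* at 23.3 ± 2.47, *Slc32a1* at 21.2 ± 3.37 and *Erbb4* at 8.01 ± 0.365 FPKM. *Reln* (4.31 ± 0.996), *Lhx6* (3.42 ± 0.480), *Ndnf* (3.32 ± 1.10) and *Adarb2* (2.08 ± 0.532 FPKM) were lowest. Neighbours in this order kept it in 6 of 6 libraries, except that *Pvalb* was above *Slc32a1* in 5, *Reln* above *Lhx6* in 5 and *Lhx6* above *Ndnf* in 4. Exon lengths are those of all annotated isoforms joined, so the level of a gene that uses short isoforms is understated.

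Ratios of these FPKM levels within a library show how the genes moved against each other. Of 10 ratios computed, those given here were chosen after their values were seen, as a description without a test. *Adarb2* to *Lhx6* was 1.05, 0.707 and 0.648 in KO against 0.428, 0.366 and 0.609 in WT. All 3 KO ratios were above the WT ratios, but the nearest values, 0.648 and 0.609, lay close together. The counting error at the lowest count was 6.54% for *Adarb2* and 7.35% for *Lhx6*. These genes had log2 fold changes of opposite sign, so the separation of their ratio is not a further result. The ratio of *Adarb2* to *Gad1* overlapped, with means of 0.0497 ± 0.00928 and 0.0459 ± 0.00966 (SD, n = 3). *Lhx6* to *Gad1* was 0.0374, 0.0810 and 0.0809 in KO against 0.0833, 0.128 and 0.0902 in WT, also without overlap. Here too the nearest values, 0.0810 and 0.0833, lay close together. How often ratios of other genes separate was not computed. *Gad1* to *Gad2* was 1.96, 1.45 and 1.37 in KO against 1.36, 1.23 and 1.43 in WT, and KO replicate 1 alone stood apart. *Ndnf* to *Reln* was 0.874, 0.876 and 0.716 in KO against 0.626, 0.660 and 0.815 in WT, which overlap.

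The promoters of the members were searched for short sequences. *Gad1* and *Adarb2*, which held a match, and *Pvalb*, which held none, are printed below. KO replicate 1 was highest for 7 of the 9 genes, and lowest for *Lhx6* as well as *Pvalb*. No match was found for *Gad2*, *Slc32a1*, *Reln*, *Erbb4* or *Lhx6*, and a link between matches and levels was not tested. RefSeq promoters of the GRCm38.p6 assembly matched 8 of the 9 genes, with 11 start sites, and *Ndnf* did not match. The 250 bases before each start were searched on both strands for TAATTA and for TATAAA. The former reads the same on both strands and is a core recognised by many homeodomain factors. The latter is often given as the TATA box sequence. Matches were counted whatever their position or strand, and variants were not searched for. The search therefore shows neither the presence nor the absence of the TATA box. TAATTA occurred at 1 of the 11 start sites, that of *Adarb2*, against 4.84% of all 32851 start sites, and TATAAA at 1 of the 11, that of *Gad1* on the reverse strand, against 12.4% of all start sites. The sequences below read 5′ to 3′ on the strand of the gene, with the matches in capitals (TTTATA for the reverse-strand match of *Gad1*), for *Gad1* (chr2:70561879-70562128, plus strand), *Adarb2* (chr13:8202616-8202865, plus strand) and the first of the 2 start sites of *Pvalb* (chr15:78206401-78206650, minus strand), where neither was found.
Gad1: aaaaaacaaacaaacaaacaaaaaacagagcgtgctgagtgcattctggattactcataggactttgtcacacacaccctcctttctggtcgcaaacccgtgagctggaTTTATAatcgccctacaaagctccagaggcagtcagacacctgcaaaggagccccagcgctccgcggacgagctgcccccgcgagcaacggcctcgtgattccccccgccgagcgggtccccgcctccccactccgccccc
Adarb2: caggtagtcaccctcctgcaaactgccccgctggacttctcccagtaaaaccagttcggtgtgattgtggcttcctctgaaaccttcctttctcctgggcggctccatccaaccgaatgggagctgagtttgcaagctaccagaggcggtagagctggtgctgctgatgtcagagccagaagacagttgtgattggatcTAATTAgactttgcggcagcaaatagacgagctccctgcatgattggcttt
Pvalb: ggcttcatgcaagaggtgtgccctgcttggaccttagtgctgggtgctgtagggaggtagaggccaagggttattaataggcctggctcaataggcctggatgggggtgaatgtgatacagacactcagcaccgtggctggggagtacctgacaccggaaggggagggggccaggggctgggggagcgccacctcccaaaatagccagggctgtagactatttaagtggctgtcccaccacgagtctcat

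The other genes of GABA handling and of the interneuron classes were read from fixed lists. For comparison with these and later lists, 51.9% of all genes had a log2 fold change above 0. An unadjusted limma-voom p-value under 0.05 was found for 7.82% of all genes. Without KO replicate 1 these shares were 51.3% and 4.44%. Of 10 genes of GABA uptake, breakdown, supply and chloride balance, 8 were higher and 2 lower in KO, and 1 had an unadjusted limma-voom p-value under 0.05. That was *Slc12a2*, the chloride importer NKCC1, at 78.6, 74.8 and 68.0 CPM in KO and at 65.1, 52.7 and 71.8 CPM in WT (log2 fold change 0.23, limma-voom unadjusted p = 0.0455 and adjusted p = 0.635). The groups overlapped through WT replicate 3, and the log2 fold change was 0.11 without WT replicate 2 and 0.10 with the olfactory bulb covariate. The median over this list was 0.08 with all libraries and -0.01 without KO replicate 1. The GABA transaminase gene *Abat* had a log2 fold change of 0.11. It was at 275, 220 and 212 CPM in KO and at 225, 216 and 213 CPM in WT, so KO replicate 1 alone was above the WT range.

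Of 7 transcription factors shared by GABA neurons, 6 were higher in KO, with a median log2 fold change of 0.46, which became -0.07 without KO replicate 1. *Dlx1* was at 94.3, 37.9 and 38.6 CPM in KO and at 37.4, 23.2 and 33.9 CPM in WT (log2 fold change 0.76, limma-voom unadjusted p = 0.0274 and adjusted p = 0.635), so all KO values were above the WT values, by a narrow margin outside KO replicate 1. *Dlx5* had a log2 fold change of 0.86 (limma-voom unadjusted p = 0.0358 and adjusted p = 0.635) and overlapped. Without KO replicate 1 the log2 fold changes were 0.30 for *Dlx1* and 0.37 for *Dlx5*, and with the olfactory bulb covariate they were 0.19 and 0.25. The summed level of the 7 came to 211, 106 and 106 CPM in KO and to 113, 83.0 and 108 CPM in WT.

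All 7 tested genes of the medial eminence list (8 listed, *Nkx2-1* not tested) were lower in KO, with a median log2 fold change of -0.16, or -0.25 without KO replicate 1, when 6 of the 7 were lower. Over all genes, 9185 of 19084 were lower. At an unadjusted limma-voom p-value under 0.05 there were 3 of the 7, against 7.82% of all genes, with *Sst* and *Satb1* among them. *Satb1*, a chromatin organiser of somatostatin cells that is also expressed in other neurons, had a log2 fold change of -0.24 (limma-voom unadjusted p = 0.0473 and adjusted p = 0.635) with overlapping groups, while *Sox6* was at -0.02 and *Elfn1* at -0.07. *Satb1* was at -0.16 without KO replicate 1, at -0.11 without WT replicate 2 and at -0.05 with the olfactory bulb covariate. The summed level of the 7 genes came to 295, 314 and 315 CPM in KO and to 377, 386 and 355 CPM in WT, and KO and WT did not overlap.

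Other genes of the parvalbumin class were mixed, with 4 higher and 3 lower in KO and a median of 0.04, or 3 higher, 4 lower and a median of -0.09 without KO replicate 1. *Syt2*, the synaptotagmin of their terminals, was at 19.9, 28.4 and 33.4 CPM in KO and at 32.8, 39.0 and 32.7 CPM in WT (log2 fold change -0.40, limma-voom unadjusted p = 0.0253 and adjusted p = 0.635). The groups overlapped, with KO replicate 1 far below the rest, and without it the log2 fold change was -0.17. With the olfactory bulb covariate *Syt2* was at -0.11. Of the potassium channel genes, *Kcnc1* had a log2 fold change of 0.04 and *Kcnc2* one of -0.10, at 104, 105 and 108 CPM in KO and at 111, 112 and 117 CPM in WT without overlap. Of the matrix genes, *Acan* was at 0.19 and *Hapln4* at -0.25 on the log2 scale, both with overlapping groups. *Acan* was at 7.37, 2.51 and 3.28 CPM in KO and at 4.78, 3.03 and 3.14 CPM in WT, so KO replicate 1 alone was above the WT range. *Hapln4* was at 67.5, 86.2 and 90.7 CPM in KO and at 102, 114 and 76.5 CPM in WT, and KO replicate 1 alone was below the WT range.

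In the caudal eminence list 5 of 10 genes were higher and 5 lower in KO (median -0.03, or -0.01 without KO replicate 1). *Sp8* was at 28.2, 6.03 and 6.09 CPM in KO and between 1.56 and 6.98 CPM in WT (log2 fold change 1.58, limma-voom unadjusted p = 0.0369 and adjusted p = 0.635, or 0.0204 with the Y-linked covariate), and *Cnr1*, the cannabinoid receptor of *Cck* interneurons, had a log2 fold change of -0.16 (limma-voom unadjusted p = 0.0429 and adjusted p = 0.635). The log2 fold change of *Sp8* was 0.76 without KO replicate 1, 1.01 without WT replicate 2 and 0.31 with the olfactory bulb covariate. *Vip* was at 39.0, 32.2 and 34.9 CPM in KO and at 42.7, 39.1 and 36.2 CPM in WT (log2 fold change -0.15) and *Htr3a* had a log2 fold change of 0.05. *Adarb2* itself stood at 0.46. Among 7 neurogliaform and layer 1 genes 2 were higher and 5 lower (median -0.06, or -0.07 without KO replicate 1). *Sv2c* had a log2 fold change of 0.38 (limma-voom unadjusted p = 0.0382 and adjusted p = 0.635) and *Nos1* one of -0.24 (limma-voom unadjusted p = 0.0303 and adjusted p = 0.635). Without KO replicate 1 these were 0.21 for *Sv2c* and -0.13 for *Nos1*, and *Sv2c* was at 0.21 without WT replicate 2 as well. With the olfactory bulb covariate they were 0.07 for *Sv2c* and -0.16 for *Nos1*. *Lamp5* was at -0.16 and *Npy* at -0.21 on the log2 scale, both with overlapping groups. *Lamp5* was at 124, 116 and 140 CPM in KO and at 136, 143 and 143 CPM in WT. *Npy* was at 51.0, 40.3 and 38.8 CPM in KO and at 72.7, 43.5 and 39.3 CPM in WT, where WT replicate 1 stood above all other libraries.

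The partners of reelin and of ErbB4 had log2 fold changes between -0.09 and 0.30. Of the reelin receptors and their signalling genes, 3 of 4 were higher (median 0.06), but without KO replicate 1 the median was -0.02 and 2 of the 4 were lower. *Vldlr* had a log2 fold change of 0.06, *Lrp8* of 0.06, the adaptor *Dab1* of 0.06 and the kinase *Fyn* of -0.06, and none had an unadjusted limma-voom p-value under 0.05. With single libraries left out, *Dab1* ranged from 0.02 to 0.08 and *Fyn* from -0.16 to 0.03. Of 8 neuregulins, receptors and sheddases 5 were higher and 3 lower (median 0.09, or 0.06 without KO replicate 1). The ligand genes *Nrg1*, *Nrg2* and *Nrg3* had log2 fold changes of -0.08, 0.15 and -0.09, and the receptor genes *Erbb2* and *Erbb3* had 0.30 and 0.25, again with 0 of the 8 at an unadjusted limma-voom p-value under 0.05. *Erbb2* ranged from 0.14 (without WT replicate 2) to 0.54 (without WT replicate 3) and *Erbb3* from 0.11 (without KO replicate 1) to 0.37 (without WT replicate 3), and *Erbb3* was at 0.12 without WT replicate 1.

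Markers of other cell types moved between libraries as follows. All 6 olfactory bulb markers were higher in KO (median log2 fold change 1.32), but without KO replicate 1 the median was 0.65 and 1 of the 6 was lower. Among them were *Th* at 39.1, 9.55 and 5.86 CPM in KO and at 9.48, 1.15 and 4.47 CPM in WT, and *Pbx3* at 47.6, 21.8 and 13.7 CPM in KO and at 16.9, 3.11 and 14.6 CPM in WT. Their unadjusted limma-voom p-values were 0.0412 and 0.0248, with an adjusted p of 0.635 for each, and *Th* passed with the Y-linked covariate (adjusted p = 0.0204). The log2 fold changes of 1.87 and 1.41 became 0.99 and 0.88 without KO replicate 1, and 1.07 and 0.66 without WT replicate 2. All 10 striatal markers were higher (median 0.35, or 0.49 without KO replicate 1), with *Penk* at a log2 fold change of 0.84 (limma-voom unadjusted p = 0.0217 and adjusted p = 0.635), or 0.45 without WT replicate 2 and 1.31 without WT replicate 3. All 8 excitatory markers were lower (median -0.19, or -0.06 with 6 of the 8 lower without KO replicate 1), to unlike extents. *Camk2a* was at 0.00, a KO to WT ratio of 0.999, and *Neurod2* and *Cux2* were at -0.07 and -0.08. *Neurod6* had a log2 fold change of -0.42 without overlap between the groups (limma-voom unadjusted p = 0.00348 and adjusted p = 0.635). Of 8 oligodendrocyte genes 7 were higher (median 0.19, or 0.27 without KO replicate 1). *Mobp* was at 0.37 and *Cldn11* at 0.26, against 0.17 and 0.12 without WT replicate 1 and 0.66 and 0.43 without WT replicate 3. All 8 astrocyte genes were higher (median 0.07, with *Slc1a3* at 0.12 and *Aldoc* at 0.07), though without KO replicate 1 the median was 0.00 and 4 of the 8 were lower. With single libraries left out, *Slc1a3* ranged from 0.03 (without WT replicate 2) to 0.19 (without KO replicate 2) and *Aldoc* from 0.02 (without KO replicate 1) to 0.12 (without KO replicate 2). Of 8 microglia genes 6 were lower (median -0.02, *Aif1* at -0.47), or 7 with a median of -0.12 without KO replicate 1. Of 7 endothelial genes 5 were lower (median -0.09), or 6 with a median of -0.05 without KO replicate 1. *Slco1a4* was at 0.21, from 0.07 (without WT replicate 2) to 0.40 (without WT replicate 3), and *Flt1* at -0.15, or -0.05 without KO replicate 1, -0.06 without WT replicate 3 and -0.24 without KO replicate 2. The part of these cell types in the values of the 9 genes was not tested beyond the covariates above.

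The genes whose pattern over the 6 libraries was most like that of the members were found among 10253 genes with a mean of at least 10 CPM, by the root mean square difference of centred log2 CPM. For *Gad1* they were *Slc6a11*, a GABA transporter gene, *Pcdh20* and *Pcbp3*, at 0.05, 0.06 and 0.08. *Slc6a11* was at 270, 145 and 146 CPM in KO and at 181, 119 and 146 CPM in WT. For *Slc32a1* they were *Hap1*, *Fstl5* and *Ano4*, at 0.05, 0.06 and 0.07, and for *Pvalb* they were *Rac3*, *Atmin* and *Mmd*, each at 0.03. *Mmd* was at 158, 176 and 182 CPM in KO and at 215, 199 and 185 CPM in WT. Likeness over 6 libraries says nothing of shared function or control.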

How the data were processed

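Polyadenylated RNA of prefrontal cortex was sequenced from 3 KO and 3 WT samples with a strand-specific kit. Per the file headers and the submitters' processing notes, the authors aligned reads with STAR 2.7.9a to GRCm39 and deposited raw counts of fragments per gene and library from featureCounts 1.6.0 (exons, reverse-stranded, GENCODE annotation), in which fragments mapping to several places or genes were not counted. The study's methods name an earlier assembly, so coordinates are those of the files. Exon length, the other deposited column used, is not a measurement.

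Symbols came from a GENCODE table by gene identifier. Genes with at least 6 fragments in a library (19084) were tested with TMM factors in edgeR 4.0.16 and voom in limma 3.58.1 (R 4.3.3), two-sided, without covariates, with Benjamini-Hochberg adjustment across all genes tested and a threshold of 0.05. The use of edgeR, voom and limma and the filter on low counts follow the study's methods, while TMM, the adjustment and the threshold were chosen here. edgeR's quasi-likelihood test and DESeq2 1.42.0 were alternatives. Covariates were the mean log2 CPM of the striatal or olfactory bulb markers, or summed Y-linked expression. The code was tested on simulated data. Members and gene lists were chosen with earlier results of these data known. Genes were named by rule: all members, *Pla2g4e*, *Sst*, list genes with an unadjusted p under 0.05 (or else the 2 lowest), and the 3 nearest genes for 3 members. A few genes that the rule names are not reported here. The few other list genes given with values were chosen after their values were seen. Fragments carry no molecular identifiers, so counting errors cover counting only.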

Additional observations from a re-analysis of the deposited data

How the results depend on the processing

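None of the 9 members passed the adjusted threshold in the main comparison or under any of the 19 alternatives, and their lowest adjusted p-value was 0.277, for *Lhx6*. Directions were the same under all 19 for *Pvalb* (log2 fold change -0.29 to -0.11), *Lhx6* (-0.40 to -0.25), *Adarb2* (0.22 to 0.60) and *Ndnf* (0.09 to 0.71), and for *Sst* (-0.55 to -0.34). The cause of the changes below was not tested.

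Over all genes, 0 passed the adjusted threshold, but 1 did with DESeq2, 22 with the Y-linked covariate, 3 in the 4 libraries without *Xist*, 1 with the olfactory bulb covariate (chosen after seeing the data), and 0 to 1 when single replicates were left out. Of the genes named, *Sst* passed with DESeq2 (adjusted p = 0.0122), and *Sst* (0.0341), *Sp8* (0.0204) and *Th* (0.0204) passed with the Y-linked covariate in limma-voom. The number at an unadjusted p-value under 0.05 was 1492, and 902 with DESeq2, 982 with the striatal covariate, 696 without the *Xist* libraries, and 782 (without WT replicate 2) to 2239 (without WT replicate 3). Of the members, 2 were lower in KO, but 4 in the 4 libraries without *Xist*, 6 with the olfactory bulb covariate, and 2 to 5 (without KO replicate 1) when single replicates were left out. At an unadjusted p-value under 0.05 there were 3 members (7.82% of all genes). There was 1 with the striatal covariate (5.15% of all genes) and 1 with the olfactory bulb covariate (5.87%). There were 6 with the Y-linked covariate (2015 of all genes, or 10.6%) and 0 without the *Xist* libraries (3.77%). Without KO replicate 1 or WT replicate 2 there was 1 (4.44% and 4.13% of all genes). Without KO replicate 3 there were 6 (1527 of all genes, or 8.05%). Groups did not overlap for 2 members, and for 2 to 4 (without KO replicate 3) when single replicates were left out. Over all genes that share was 24.3% without KO replicate 3, against 6.72% (KO above) and 6.29% (KO below) with all libraries. With single replicates left out it ran from 20.4% (without WT replicate 2) to 30.9% (without WT replicate 3). Among calls at an unadjusted p-value under 0.05, the share higher in KO was 56.0%, but 71.9% with library totals and 45.9% without WT replicate 3.

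The samples of both groups share replicate numbers. Deviations from the group means correlated at 0.267, 0.0591 and -0.0199 for the numbers 1, 2 and 3, not above 0.1 throughout, and the samples were treated as unpaired. With the replicate block, 6 members had an unadjusted p-value under 0.05, as did 1693 of all genes (8.87%), and 0 members and 0 genes passed the adjusted threshold.

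These log2 fold changes changed sign. With the olfactory bulb covariate they were -0.11 for *Gad1*, -0.16 for *Gad2*, -0.14 for *Slc32a1*, -0.10 for *Reln*, -0.01 for *Slc1a3*, -0.01 for *Aldoc*, -0.12 for *Slc6a11*, -0.06 for *Pcdh20*, -0.04 for *Hap1*, -0.07 for *Fstl5* and -0.10 for *Ano4*. In the 4 libraries without *Xist* they were -0.12 for *Slc32a1*, -0.04 for *Erbb4*, -0.03 for *Erbb3*, -0.03 for *Hap1*, 0.00 for *Fstl5* and -0.16 for *Ano4*. With quality weights they were -0.02 for *Slc32a1* and -0.05 for *Ano4*, and with the striatal covariate 0.03 for *Fyn*. When single replicates were left out they ranged from -0.07 to 0.23 for *Gad2*, -0.14 to 0.18 for *Slc32a1*, -0.01 to 0.37 for *Reln*, -0.01 to 0.07 for *Erbb4*, -0.16 to 0.03 for *Fyn*, -0.01 to 0.44 for *Slc6a11*, -0.05 to 0.27 for *Hap1*, -0.05 to 0.27 for *Fstl5* and -0.15 to 0.14 for *Ano4*.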

Other observations

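Several genes of the caudal eminence and transcription factor lists were far above the other libraries in KO replicate 1. *Calb2*, which encodes calretinin, was at 103, 24.5 and 17.9 CPM in KO and at 29.7, 10.2 and 17.4 CPM in the libraries labelled WT. *Sp9* was at 18.3, 8.63 and 5.78 CPM in KO and at 6.35, 3.77 and 7.61 CPM in the libraries labelled WT. For both genes the library labelled WT replicate 2 was the lowest, as it was for *Gad1*, *Th* and *Pbx3*. *Maf*, which is expressed in the medial eminence lineage, was at 24.5, 24.0 and 26.8 CPM in KO and at 29.7, 25.7 and 25.8 CPM in the libraries labelled WT. These genes were chosen after their values were seen, and the part of the olfactory bulb markers in them was not tested.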
